A study of Drosophila melanogaster with 12 samples.

Results

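Transcripts of 6 genes of chemical signalling between cells were followed in Drosophila melanogaster ovaries with and without the DNA-binding protein Su(Hw): Ace and 5-HT1A of the classical transmitters, Oamb of octopamine signalling, the peptide precursor genes AstC and ETH, and the peptide receptor gene Dh44-R2. The genes were selected on earlier results of these same arrays, namely their higher signal in the mutants, and then listed by name. Probe sets were looked up by the platform's gene symbol, its gene identifier or a synonym. Of the 6 genes, 5 had probe sets, 6 probe sets in all, out of 11982 genes named by a probe set of their own. No probe set named Oamb, the octopamine receptor of oviduct and follicle cells known to be needed for ovulation, and it was not analysed here.

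The arrays compared 2 mutants with 2 wild types, 3 biological replicates each. The first mutant, su(Hw)Pb/2, carried su(Hw)[e04061] over su(Hw)[2]. The second, su(Hw)A2663/v, carried su(Hw)[A2663] over an allele given as v in one label and as su(Hw)[2] in another, together with the P element EPgy2 in CG6499[EY02782]. Both mutants had an X chromosome marked with y[2], w[67c23], ct[6] and f[1]. The wild type BL15598 was a y[1] w[67c23] stock with the same P element, and Canton S carried none of these markers. Each replicate was RNA pooled from about 100 pairs of ovaries of virgin females 4 to 6 h after eclosion, an age at which egg chambers have reached stages 1 to 8. Because both mutants share the marked X, an effect of that chromosome and an effect of su(Hw) loss cannot be told apart.

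Neurons release small transmitters such as acetylcholine and serotonin at synapses, where enzymes such as acetylcholinesterase end the signal. Peptide hormones are cut from longer precursors in neurons and endocrine cells and act on G-protein-coupled receptors of distant tissues. Su(Hw) is known from the gypsy insulator and as a repressor of neuronal genes in the female germline. AstC is made in neurons and in enteroendocrine cells of the midgut, so digestive enzyme transcripts are given beside it.

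Signals are log2 values after GCRMA, in which unexpressed probe sets lie in a narrow low range. A log2 value of 5 was taken as the lowest measurable signal, called the floor here, and 61.9% of all array values were below it. The labels held: su(Hw) averaged 2.94 ± 0.42 in Pb/2 and 2.56 ± 0.07 in A2663/v, against 8.89 ± 0.13 in BL15598 and 9.21 ± 0.09 in Canton S (SD, n = 3). The germline markers were high in every genotype, with a mean over 7 genes of 10.08 to 10.26 on mutant arrays and 10.33 to 10.49 on wild-type arrays. The mean of 5 tested follicle cell markers was 7.86 to 9.37 in Pb/2 and 6.93 to 7.41 in A2663/v, against 8.46 to 8.73 in BL15598 and 8.26 to 8.72 in Canton S, so A2663/v lay below all other arrays, and the part of this shift in the results was not tested. Of 9 neuron markers on the array, elav alone passed the floor. The other 8, among them nSyb and brp, reached at most 3.92 on any array. As a measure of RNA quality, the GAPDH control probe sets for the 3′ and 5′ ends were compared, and the log2 difference ran from 2.27 to 2.54 on mutant arrays and from 1.67 to 2.43 on wild-type arrays. For the ACTIN control it ran from 1.03 to 1.43 on mutant arrays and from 0.75 to 1.35 on wild-type arrays, which overlapped more. For the EIF-4A control it ran from 2.66 to 3.30 on mutant arrays and from 2.06 to 3.05 on wild-type arrays. Of these wild-type arrays only Canton S replicate 3 was over 2.34. The part of this difference in the results below was not tested. Ovaries are mixed tissue, so more cells of a type and more RNA per cell cannot be told apart.

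Among the 5 measured genes, 4 had higher signal on all 6 mutant arrays than on any wild-type array, as 5.35% of tested genes did, and Dh44-R2 had signal in Pb/2 alone. The contrast of the mutants with the wild types was known when the genes were chosen, so these differences are a description and carry no test. The threshold used for other genes, an adjusted p under 0.05 and at least 2-fold, was passed by 5.83% of 6163 tested genes. Nothing is read from the count of 4 genes, since this contrast chose the genes. Other genes were tested if over log2 5 on at least 3 of 12 arrays. AstC, 5-HT1A and Dh44-R2 met that filter through mutant arrays only, and Ace through the mutants and 1 Canton S array, so their presence among tested genes already required high mutant signal.

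**Figure D1:**
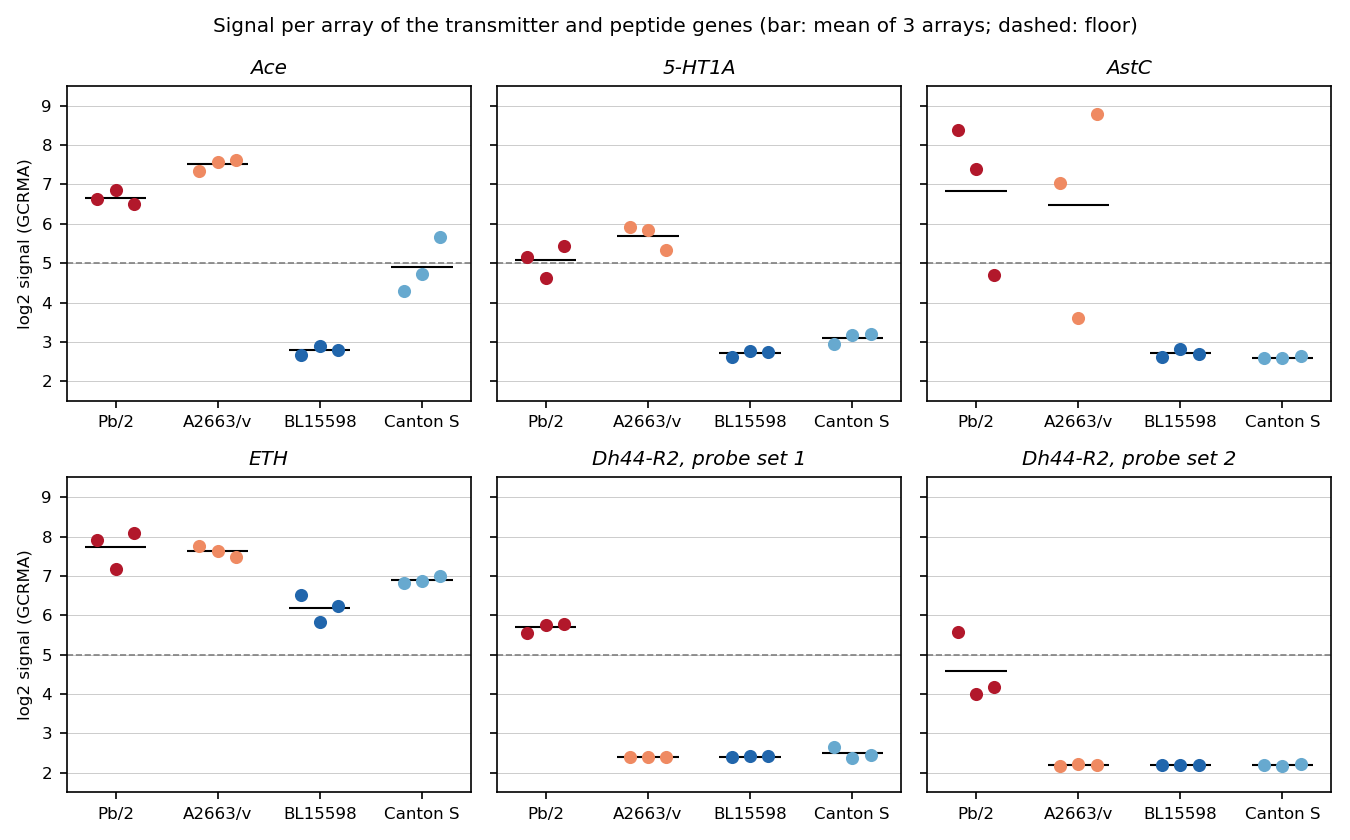
Log2 signal of each of the 6 probe sets on each of the 12 arrays, by genotype; points are replicates, black bars are means of 3 arrays and the dashed line is the floor at log2 5. Ace, 5-HT1A, AstC and ETH are higher on every mutant array than on any wild-type array, and both Dh44-R2 probe sets are raised in Pb/2 alone.

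Ace encodes acetylcholinesterase, the enzyme that breaks down acetylcholine at synapses. Its log2 signal was 6.63, 6.85 and 6.5 in Pb/2 and 7.34, 7.57 and 7.62 in A2663/v, against 2.68, 2.89 and 2.78 in BL15598 and 4.30, 4.73 and 5.68 in Canton S. All 6 mutant arrays lay over the floor and above every wild-type array, of which only Canton S replicate 3 passed the floor. The order of the genotype means was A2663/v, Pb/2, Canton S and BL15598, and no neighbours in that order shared a value. The means of Canton S and BL15598, 4.90 and 2.78, lay under the floor, so their order rests mostly on values under it.

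The mutants exceeded the wild types for Ace by 3.24 ± 0.20 on the log2 scale (SE), or by 1.97 with values under 5 raised to 5. Set against single wild types, Pb/2 was higher by 3.87 than BL15598 and by 1.75 than Canton S, and A2663/v by 4.73 and 2.61. The wild types themselves differed: the log2 difference of BL15598 minus Canton S was -2.12 ± 0.28 (SE; limma adjusted p = 9.37e-05). Once signals under the floor were set to it, the value was -0.23 (limma adjusted p = 0.394), because 5 of these 6 arrays lay under the floor, so this call rests on background values. Across all genes tested, 5.09% were called between the wild types. Pb/2 minus A2663/v was -0.85 ± 0.28 (SE; limma adjusted p = 0.0822), which did not pass, where 2.09% of genes did. Every Pb/2 array lay below every A2663/v array. With values raised to the floor this difference was again -0.85 (limma adjusted p = 0.00794), still under 2-fold and so not called.

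5-HT1A encodes a serotonin receptor that acts through an inhibitory G protein. Its log2 signal was 5.16, 4.62 and 5.43 in Pb/2 and 5.92, 5.84 and 5.33 in A2663/v, against 2.61, 2.76 and 2.75 in BL15598 and 2.94, 3.18 and 3.19 in Canton S. Every mutant array was above every wild-type array, but the signal was faint, with Pb/2 replicate 2 under the floor and the highest value at 5.92. Values of the mutants overlapped, and all wild-type values were at background.

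The fitted difference of mutants and wild types for 5-HT1A was 2.48 ± 0.20 (SE, log2). The wild types gave no measurable signal, and with values raised to the floor the fold was 1.36. Pb/2 replicate 2 was raised as well, so this fold is not a lower bound. The 5-HT1A probe set carries the platform's suffix for probes that can match more than 1 transcript, although the gene table names 5-HT1A alone. Neither the difference between the mutants, -0.63 ± 0.29 (SE; limma adjusted p = 0.22), nor that between the wild types, -0.40 ± 0.29 (SE; limma adjusted p = 0.347), passed the threshold.

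Most other components of these transmitter systems lay under the floor. ChAT, which makes acetylcholine, reached at most 2.88 on any array, and VAChT, its vesicular transporter, at most 2.68. Of the 15 acetylcholine genes on the array besides Ace, nAChRalpha4, a nicotinic receptor subunit, alone was tested. It was over the floor on all 12 arrays. Its log2 difference of mutants minus wild types was -0.72 ± 0.15 (SE; limma adjusted p = 0.00169), less than 2-fold. nAChRalpha2, another subunit, named after its values were seen, was not tested. It had 3.87, 5.02 and 3.28 in A2663/v and at most 2.38 on the 9 other arrays. The 5 other serotonin genes on the array, the receptors 5-HT1B, 5-HT2A, 5-HT2B and 5-HT7 and the transporter SerT, reached at most 2.62. In the mutants Ace, 5-HT1A and nAChRalpha4 gave signal, and nAChRalpha2 passed the floor on A2663/v replicate 2 alone. The genes named here for making, storing or taking back these transmitters lay under the floor on every array.

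**Figure D2:**
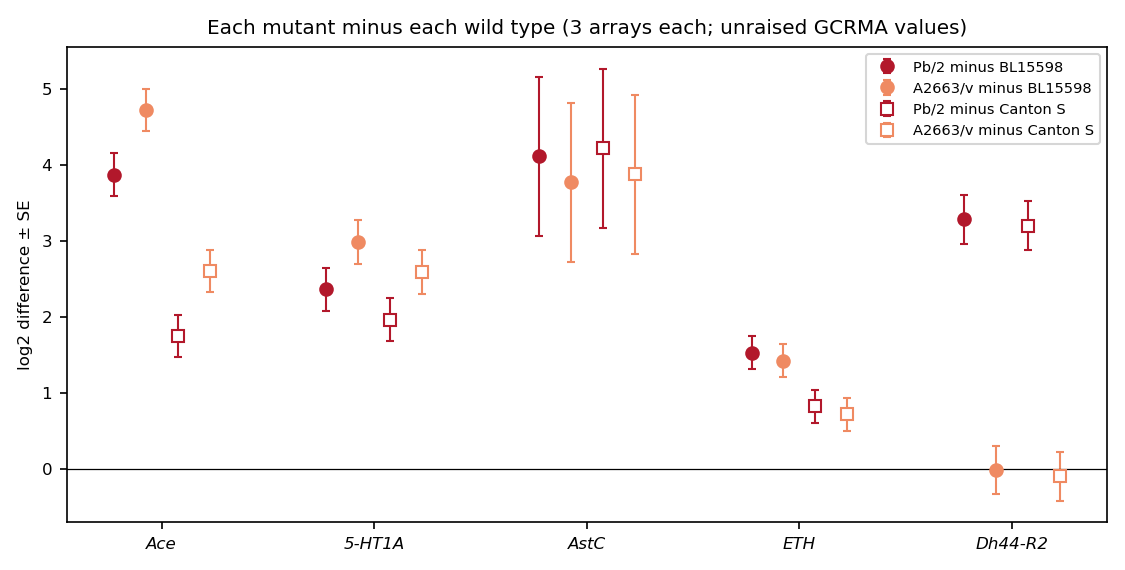
Log2 difference ± SE of each mutant minus each wild type for the 5 measured genes, from 1 fit to all 12 arrays (3 per genotype); circles are set against BL15598 and squares against Canton S. Ace and ETH differ more from BL15598 than from Canton S, AstC has wide errors, and Dh44-R2 is at 0 in A2663/v. For Ace only 1 of the 6 wild-type arrays was over the floor. The 4 comparisons share arrays and are not independent.

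ETH encodes the precursor of ecdysis triggering hormones, which are released by the Inka cells on the tracheae to start moulting behaviour and which also act in adult females. It was the one gene of the 5 that lay over the floor on all 12 arrays. Its log2 signal was 7.91, 7.18 and 8.09 in Pb/2 and 7.75, 7.64 and 7.49 in A2663/v, against 6.53, 5.83 and 6.24 in BL15598 and 6.83, 6.87 and 7.0 in Canton S. The lowest mutant array, Pb/2 replicate 2, lay just above the highest wild-type array, Canton S replicate 3. Values of the mutants overlapped, while each Canton S array was above each BL15598 array.

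ETH was higher in the mutants by 1.13 ± 0.15 (SE, log2), a fold of 2.19. The difference was 1.53 in Pb/2 and 1.43 in A2663/v when set against BL15598, but 0.83 and 0.72, both under 2-fold, when set against Canton S. BL15598 minus Canton S was -0.70 ± 0.22 (SE; limma adjusted p = 0.0295), also under 2-fold and so not called. Pb/2 minus A2663/v was 0.10 ± 0.22 (SE; limma adjusted p = 0.825). Of the 7 trachea markers on the array, 3 were tested, and their mean ran from 6.71 to 7.53 on mutant arrays and from 6.30 to 7.55 on wild-type arrays. Like ETH, this mean was lowest in BL15598, at 6.30 to 6.52. The part of tracheal tissue in the ETH signal was not tested.

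AstC encodes the precursor of allatostatin C, a peptide named for its block of juvenile hormone synthesis in moths. Its log2 signal was 8.37, 7.38 and 4.71 in Pb/2 and 7.05, 3.61 and 8.78 in A2663/v, against 2.61, 2.82 and 2.70 in BL15598 and 2.58, 2.58 and 2.63 in Canton S. Within each mutant, 2 arrays were high and 1, Pb/2 replicate 3 or A2663/v replicate 2, lay under the floor. Those 2 low mutant arrays were still above all 6 wild-type arrays, the highest of which was BL15598 replicate 2. The fitted difference was 4.00 ± 0.74 (SE, log2), and 3.81-fold with values raised to the floor. The 2 low mutant arrays were raised as well, so this fold is not a lower bound. The SDs, 1.90 in Pb/2 and 2.63 in A2663/v, were the widest of the 5 genes.

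Digestive enzyme signal was found on the same 4 mutant arrays. Of 49 digestive enzyme genes in the list, 38 were on the array and 11 were tested, namely the maltases Mal-A1, Mal-A2, Mal-A5, Mal-A6 and Mal-B2, the trypsins alphaTry, thetaTry and lambdaTry, the serine proteases Jon44E and Jon65Aiii, and yip7. Over these 11, the mean log2 signal was 6.94, 7.68 and 3.57 in Pb/2 and 6.97, 3.49 and 7.88 in A2663/v, against 4.08, 5.24 and 3.51 in BL15598 and 3.42, 3.44 and 4.40 in Canton S. Both high values in Pb/2 and both in A2663/v belong to the arrays with high AstC. The number of the 38 genes over the floor was 9, 14 and 2 in Pb/2 and 14, 2 and 14 in A2663/v, against 3, 5 and 2 in BL15598 and 2, 2 and 5 in Canton S. The 2 over the floor on every array were Mal-A5, at 10.24 and 10.34 on average in Pb/2 and A2663/v and 10.19 and 10.15 in BL15598 and Canton S, and Mal-B2. The mean over all 38 genes was 0.90 higher on mutant arrays (exact two-sided permutation test over arrays, p = 0.0433), and that over the 11 tested genes, most of which met the filter through mutant arrays, by 2.07. The gene list was chosen with earlier results of these data known, so the permutation test is not independent of them. That test also exchanges single arrays although they group by genotype. It missed 0.05 when any 1 of 9 arrays was left out (exact permutation p up to 0.0844). These were the 4 mutant arrays with the signal, BL15598 replicates 1 and 3 and the Canton S arrays. The log2 difference of mutants and wild types was 3.06 ± 1.10 for thetaTry and 2.69 ± 0.80 for Jon44E (SE), given with no test because both met the filter through mutant arrays.

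**Figure D3:**
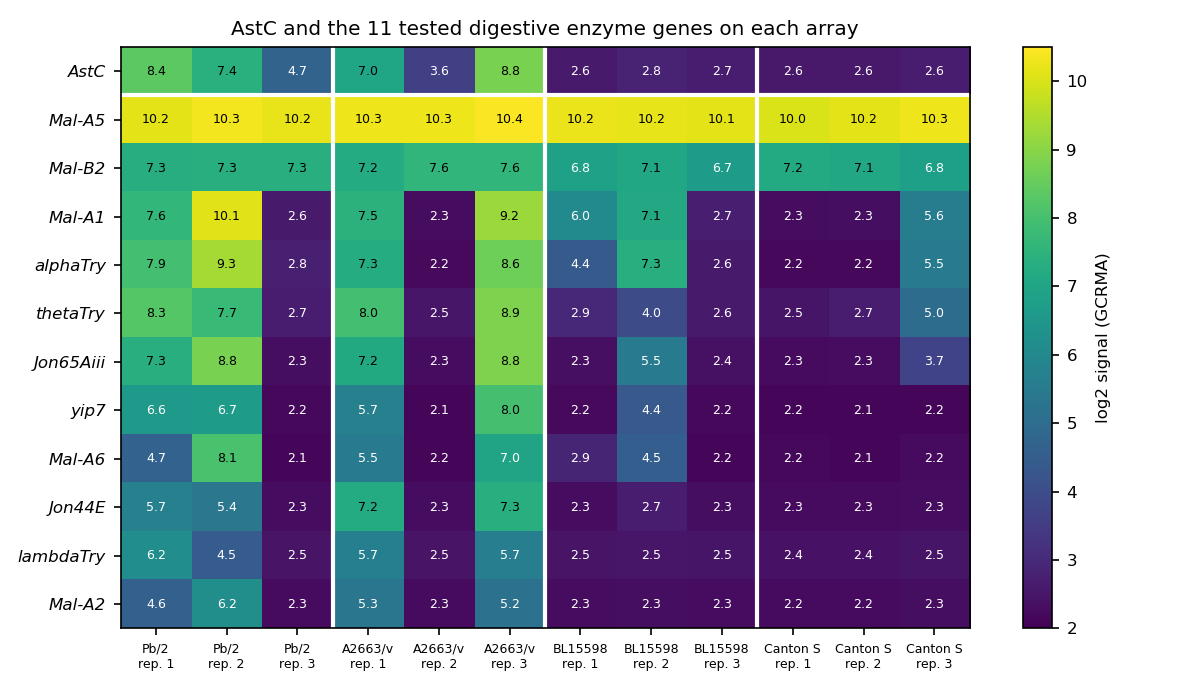
Log2 signal of AstC (top row) and of the 11 tested digestive enzyme genes on each of the 12 arrays, coloured and printed to 1 decimal. Outside Mal-A5 and Mal-B2, which are over the floor on all arrays, signal is brightest in the first 2 columns of Pb/2 and in columns 1 and 3 of A2663/v, which are also the 4 arrays with AstC over the floor. BL15598 replicate 2 shows fewer digestive genes and no AstC.

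Over the 6 mutant arrays, AstC followed thetaTry (Pearson r = 0.967), yip7 (r = 0.973) and the other tested digestive genes (r of 0.807 to 0.935), but not Mal-A5 (r = 0.276) or Mal-B2 (r = -0.222). These are descriptions over 6 arrays that share their libraries. In the wild types, digestive signal was also found without AstC. AstC was at 2.82 in BL15598 replicate 2, where alphaTry reached 7.34, the maltase Mal-A1 7.14 and the protease Jon65Aiii 5.54. The other tested digestive genes besides Mal-A5 and Mal-B2 lay under the floor there, with thetaTry at 3.96 and yip7 at 4.38. The mean over the 11 tested genes was 5.24 on that array, below the 6.94 to 7.88 of the 4 mutant arrays. Canton S replicate 3 had alphaTry at 5.54 and AstC at 2.63. With digestive signal as a covariate the AstC difference was 2.17 ± 0.42 (SE, log2). Most genes of the covariate, like AstC, met the filter through mutant arrays, and AstC lay at background on all wild-type arrays. This fit therefore cannot separate gut tissue from genotype. Without the 4 arrays it was 1.51, from 1 array per mutant, too few to show the spread within a mutant. Every remaining AstC value lay under the floor, so no fold is given. The part of gut tissue in the AstC signal was not tested beyond these values.

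**Figure D4:**
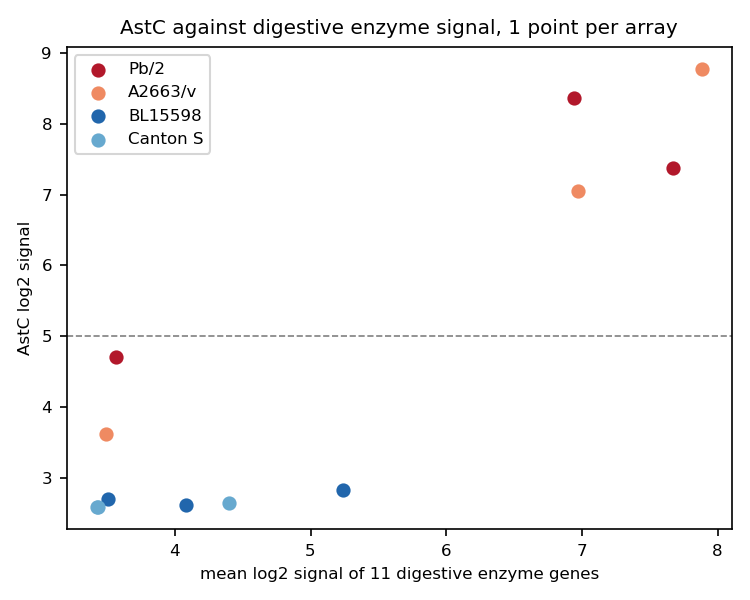
AstC log2 signal against the mean log2 signal of the 11 tested digestive enzyme genes, 1 point per array, coloured by genotype; the dashed line is the floor. The 4 mutant arrays with a digestive mean of 6.94 to 7.88 have AstC at 7.05 to 8.78, while Pb/2 replicate 3 and A2663/v replicate 2 lie at the left with AstC at 4.71 and 3.61.

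Of 9 enteroendocrine markers on the array, AstC among them, 7 reached at most 2.70 on any array. These included NPF, Mip, Dh31, CCHa1 and the transcription factor pros. Being under the floor everywhere, these 7 cannot show whether enteroendocrine cells went with AstC, and its cell source was not tested. CCHa2, a peptide also made by fat body, was over the floor on all arrays, and its log2 difference of mutants minus wild types was -0.42 ± 0.20 (SE; limma adjusted p = 0.0966). AstCC, the paralogue that lies next to AstC, reached at most 2.15, and the receptor gene AstC-R1 at most 2.40.

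The differences of the other measured genes moved less than that of AstC when digestive signal was taken into account. With it as a covariate, under the limit given for AstC, they were 3.11 for Ace, 2.69 for 5-HT1A, 1.33 for ETH and 1.62 for Dh44-R2 (log2). In both mutants ETH and 5-HT1A were lowest on the array with the highest digestive signal, Pb/2 replicate 2 and A2663/v replicate 3. Without the 4 arrays the log2 differences of mutants and wild types were 3.19 for Ace, 2.73 for 5-HT1A, 1.32 for ETH and 1.64 for Dh44-R2. These were close to the values over all 12 arrays, but rest on 1 array per mutant, so no SE is given. On the 2 mutant arrays without digestive signal, Pb/2 replicate 3 and A2663/v replicate 2, Ace was at 6.5 and 7.57, 5-HT1A at 5.43 and 5.84, and ETH at 8.09 and 7.64.

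Dh44-R2 encodes a receptor for the diuretic hormone Dh44, a peptide related to vertebrate corticotropin-releasing factor. Its brighter probe set had a log2 signal of 5.55, 5.76 and 5.78 in Pb/2 and 2.40, 2.40 and 2.39 in A2663/v, against 2.39, 2.42 and 2.41 in BL15598 and 2.65, 2.38 and 2.45 in Canton S. Its second probe set was at 5.57, 3.99 and 4.18 in Pb/2 and 2.18, 2.21 and 2.20 in A2663/v, against 2.19, 2.20 and 2.20 in BL15598 and 2.18, 2.18 and 2.22 in Canton S. Both probe sets were higher on all 3 Pb/2 arrays than on the 9 others, but only 1 Pb/2 array passed the floor with the second.

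Pb/2 minus A2663/v was 3.30 ± 0.32 (SE, log2) for the brighter probe set, at least 1.62-fold with values raised to the floor. The gene may have been chosen for this difference, so it carries no test. A2663/v differed from BL15598 by -0.01 ± 0.32 and from Canton S by -0.09 ± 0.32 (SE). The average difference over both mutants, 1.6, therefore describes neither of them. The digestive signal of the 3 Pb/2 arrays was 6.94, 7.68 and 3.57. On the same arrays the brighter Dh44-R2 probe set was at 5.55, 5.76 and 5.78, and the second varied, at 5.57, 3.99 and 4.18. The ligand gene Dh44 reached at most 2.50 on any array and the other receptor gene, Dh44-R1, at most 2.28.

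Genes with the pattern most like each of the 5 were found by Pearson r over the 12 arrays, given as a description with no test, since arrays group by genotype. For Ace they were Mad (r = 0.977), the BMP pathway transcription factor, fra (r = 0.973), the netrin receptor, and RhoGAP100F (r = 0.972). For 5-HT1A they were the cytochrome P450 gene Cyp6a17 (r = 0.983), CG33158 (r = 0.974) and the kinetochore gene Ndc80 (r = 0.974). ETH was most like brm (r = 0.978), the chromatin remodelling ATPase, Uvrag (r = 0.972) and Ice2 (r = 0.965).

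AstC was most like hoka (r = 0.966), which encodes a septate junction protein of the midgut, CG13321 (r = 0.960) and CG10472 (r = 0.959). All 3 had wild-type means of 2.04 to 2.34, at background. Dh44-R2 was most like ZnT77C (r = 0.987), a zinc transporter gene, CG14645 (r = 0.975) and lov (r = 0.963). ZnT77C averaged 8.61 in Pb/2 and 6.53 in A2663/v, against 6.54 in BL15598 and 6.70 in Canton S.

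The genes that lie next to the 5 were looked up by order in the RefSeq table, up to 2 with a probe set on each side, a step added after the values were seen. Of 20 such neighbours 7 were tested, and 0 were called between mutants and wild types by limma. At an adjusted p under 0.05 with no fold minimum 4 of the 7 passed, and so did 46.9% of all genes. The largest of these differences was 0.81 for CG11686, next to Ace (limma adjusted p = 0.00762). CG34234, the neighbour of Dh44-R2, was chosen after its values were seen. It had 6.29, 4.44 and 4.95 in Pb/2 and 3.42, 3.59 and 3.33 in A2663/v, against 3.50, 3.48 and 3.36 in BL15598 and 3.66, 3.47 and 3.50 in Canton S. Like Dh44-R2 it was higher on the 3 Pb/2 arrays than on the 9 others, and 1 array passed the floor.

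The wider transmitter and peptide lists held few expressed genes. Without the 5 genes and Oamb, 178 list genes remained, 141 were on the array, and 118 of these were under the floor on all 12 arrays. Of 20 tested, 2 were called higher in the mutants, 1 lower and 17 not, with a median log2 difference of -0.12 beside -0.03 over all 6163 genes. By direction, 3.98% of all genes were called higher and 1.85% lower.

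Of 4 other peptide precursor genes, ITP, which encodes ion transport peptide, rose. Its log2 signal was 7.27, 7.45 and 7.43 in Pb/2 and 7.57, 7.75 and 7.16 in A2663/v, against 5.78, 5.84 and 5.93 in BL15598 and 7.06, 6.32 and 6.23 in Canton S. The lowest mutant array was just above the highest wild-type one. The difference was 1.25 ± 0.14 (SE; limma adjusted p = 1.5e-05), and under 2-fold against Canton S, at 0.85 in Pb/2 and 0.96 in A2663/v. Nplp2, CCHa2 and Nplp3 did not pass. Nplp3 varied widely among the mutant arrays, at 3.65, 5.94 and 7.73 in Pb/2 and 5.66, 3.26 and 9.02 in A2663/v, against 6.02 to 8.00 on the wild-type arrays. Its difference was -1.22 ± 0.82 (SE; limma adjusted p = 0.24) and that of Nplp2 -0.01 ± 0.13.

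Of peptide receptors other than Dh44-R2, tor and InR, both receptor tyrosine kinases, were tested and 0 were called by limma. Their log2 differences were -0.35 ± 0.14 (SE; limma adjusted p = 0.0493), less than 2-fold, and -0.19 ± 0.17 (SE; limma adjusted p = 0.363). Of 6 peptide processing genes 0 were called. Phm and Pal1, which together amidate peptides, differed by 0.12 ± 0.07 and -0.23 ± 0.08 (SE, log2), and the furin gene Fur2 by -0.05 ± 0.09. The prohormone convertase gene amon, which acts in peptide-secreting neurons, reached at most 2.63.

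Of 3 octopamine, tyramine and dopamine genes tested, Tdc1, a tyrosine decarboxylase that makes tyramine outside neurons, rose by 1.47 ± 0.12 (SE; limma adjusted p = 7.98e-07). It averaged 6.93 in Pb/2 and 7.86 in A2663/v, against 5.03 in BL15598 and 6.83 in Canton S. Pb/2 differed from Canton S by only 0.10 (limma adjusted p = 0.715), so its excess in Pb/2 was measured against BL15598 alone. Oct-TyrR, a tyramine receptor, fell by 1.09 on the log2 scale (SE 0.17, limma adjusted p = 0.000189), at 3.82 in Pb/2 and 5.32 in A2663/v, against 5.23 in BL15598 and 6.09 in Canton S. With values raised to the floor the difference was -0.50, under 2-fold and no longer called. It was lower in Pb/2 than in A2663/v by a log2 of -1.5 (limma adjusted p = 0.00135), the 1 gene of the 20 called between the mutants, where 1.15% of all genes were called lower in Pb/2. Pb/2 lay under the floor, and with values raised to it this difference was -0.32 (limma adjusted p = 0.315) and no longer called. A2663/v differed from BL15598 by 0.09 (limma adjusted p = 0.795). Pu, a GTP cyclohydrolase, had a difference of 0.63 ± 0.20 (SE; limma adjusted p = 0.0205), less than 2-fold. Tdc2, the neuronal decarboxylase, and Tbh, which makes octopamine, reached at most 2.16 and 3.16.

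**Figure D5:**
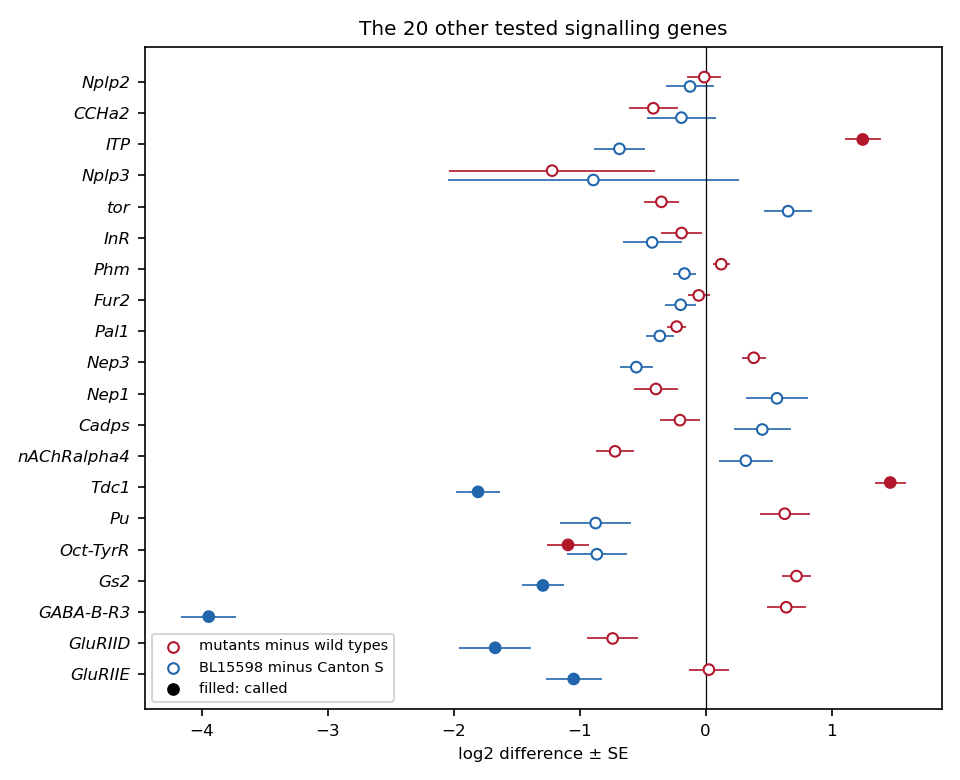
Log2 differences ± SE of the 20 other tested signalling genes, in red for mutants minus wild types and in blue for BL15598 minus Canton S; filled points passed an adjusted p under 0.05 and 2-fold. ITP, Tdc1 and Oct-TyrR pass in red, and Tdc1, Gs2, GABA-B-R3, GluRIID and GluRIIE pass in blue, all lower in BL15598.

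GABA and glutamate genes differed between the wild types. Of 4 tested, 0 were called between mutants and wild types by limma, although Gs2 (0.72), GABA-B-R3 (0.64) and GluRIID (-0.74) passed without the fold minimum. For GABA-B-R3 the direction turned, to -0.39, with values raised to the floor. All 4 were called lower in BL15598 than in Canton S, where 3.08% of all genes were. GABA-B-R3, a metabotropic GABA receptor subunit, averaged 5.45 in Pb/2 and 5.66 in A2663/v, against 2.94 in BL15598 and 6.89 in Canton S. Its difference of BL15598 minus Canton S was -3.94 (limma adjusted p = 2.21e-08), or -1.89 with values raised to the floor. Gs2, glutamine synthetase, differed by -1.29, GluRIID, a glutamate receptor subunit, by -1.67, or -1.04 with values raised to the floor. GluRIIE, named after its values were seen, differed by -1.05, or -0.32 and not called with values raised. With Tdc1, 5 of the 20 genes were called lower in BL15598 and 0 higher by limma, or 4 and 0 with values raised to the floor.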

How the data were processed

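Total RNA, 50 ng per sample, was amplified to biotin-labelled cDNA and hybridised to 12 single-colour arrays of 18952 probe sets. Values were deposited as log2 signals that the authors made with Partek 6.5 and GCRMA, per the submitters' processing notes; their order and settings are not given. GCRMA compresses unexpressed probe sets, which inflates log2 differences from background. Probe sets naming 1 gene (13647) were used, each gene by its brightest one, with symbols updated through RefSeq (Release 6 plus ISO1 MT) for 13544. Genes over log2 5 on at least 3 arrays (6163) were fitted with limma 3.58.1 in R 4.3.3, with 4 genotype means, trended variances and Benjamini-Hochberg adjustment, called at an adjusted p under 0.05 and 2-fold. Fits were tested on simulated data. Folds with values raised to the floor use values under 5 raised to 5 on every array, mutant arrays included.

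Named were the 6 genes, su(Hw), per list up to 4 called and 3 uncalled genes, all tested digestive genes, and 3 genes most like each member. Members and lists were chosen with earlier results of these data known. Arrays have no depth, so their number, 3 per genotype, limits precision. Deviations of same-numbered arrays correlated at -0.53 to 0.37 over 18 pairs, with 5 over 0.1. Those of differently numbered arrays correlated at -0.39 to 0.61 over 36 pairs, with 14 over 0.1. Arrays were therefore not paired by replicate number, although a weak pairing could be hidden in this spread. Alternatives were other filters, floors, scalings, probe set rules, variance models, a replicate block, digestive signal and left-out arrays.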

Additional observations from a re-analysis of the deposited data

Results flagged for a closer look

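The difference of BL15598 minus Canton S for Ace was -2.12 on the log2 scale, but 5 of these 6 arrays lay under the floor. With values under 5 raised to 5 it was -0.23 and no longer called, so it rests on background values. The difference of Pb/2 minus A2663/v for Dh44-R2 was 3.30 on the log2 scale, meaning that one mutant gave signal and the other did not; this difference was not tested, because the gene may have been chosen for it. No group had more than 3 arrays, so single arrays were not screened for outlying values.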

How the results depend on the processing

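For the 5 genes the differences of mutants and wild types kept their sign under every alternative in which the gene passed the filter. With values under 5 raised to 5 they moved to 1.97 for Ace, 0.45 for 5-HT1A, 1.93 for AstC and 0.35 for Dh44-R2, and Pb/2 minus A2663/v for Dh44-R2 to 0.69, because one side lay at background; Ace in BL15598 minus Canton S moved to -0.23 and was no longer called. AstC moved to 2.17 with digestive signal as a covariate and to 1.51 without the 4 arrays with that signal. Leaving out 1 array at a time gave 3.09 to 3.43 for Ace, 2.39 to 2.59 for 5-HT1A, 3.42 to 4.71 for AstC, 1.04 to 1.26 for ETH and 1.57 to 1.63 for Dh44-R2, and for the digestive signal 1.72 to 2.59 over 11 genes and 0.75 to 1.12 over all 38, a repeat chosen after seeing the data. Of the 20 other signalling genes, 6 were higher and 5 lower with no fold minimum, beside 46.9% of all genes. Between the mutants, the 1 gene called lower became 0 with values raised to 5, also chosen after seeing the data. The count lower in the mutants was 2 without a filter, 0 with values raised to 5, 0 with digestive signal as a covariate, and 1 to 2 when 1 array was left out (2 without A2663/v replicate 3); the cause was not tested. With the replicate block, 2 genes were higher and 1 lower, as without it, and no call of the 5 genes changed. With at least 6 arrays over the floor required, 5-HT1A, AstC and Dh44-R2 dropped out. Dh44-R2 also dropped out when the mean of all probe sets of a gene was used, so its inclusion rests on its brighter probe set.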
